A study of Gallus gallus with 6 samples.

Results

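Of the transcription factors that mark the chick neural plate, 9 were followed in sorted cells of the gastrula. OTX2, SIX3 and HESX1 belong to its anterior part, and PAX6 to anterior and ventral neural tissue at later stages. GBX2 belongs to its posterior part, SOX2 and SOX3 are pan-neural factors, and ZIC1 and ZIC2 complete the set. These 9 genes were chosen by name, with earlier results of these data known. Each was found through probe sets that the array annotation assigns to a single gene. All 9 were on the array and 0 were absent. Together they had 12 probe sets of the 38439 measured, or 9 of 13051 genes, with more than 1 probe set for OTX2, ZIC1 and ZIC2.

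The neural plate is the sheet of ectoderm from which the brain and spinal cord form. OTX2 is a homeodomain factor of the future forebrain and midbrain, and GBX2 is one that meets it at the future boundary of midbrain and hindbrain, where each restrains the other. SOX2 and SOX3, HMG-box factors of the SoxB1 group, are shared by neural progenitors along the whole axis, and the zinc finger factors ZIC1 and ZIC2 act in the plate and at its edge. None of these genes is exclusive to the neural plate, since OTX2 is also made in the anterior mesendoderm and GBX2 in posterior tissue of the gastrula.

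The embryos were electroporated at stage HH3 with Hb-eGFP, in which eGFP is driven by a minimal promoter of human beta-globin and a regulatory fragment of the chick Cerberus gene, and with pCAGGS-RFP, a reporter active in all electroporated cells. The labels give the fragment as -255 to -204 bp, whereas a legend of the study names another construct of the Hb reporter for the arrays, and which of them was used is not settled here. At HH5-6 they were harvested as 3 pools of 4 embryos, and each pool was sorted into eGFP+ cells, here called Hb-eGFP+, and eGFP-/RFP+ cells, here called RFP+ control. RNA of 3 samples of each population was hybridized to Affymetrix Chicken Genome arrays, 6 arrays in all. All embryos received both plasmids and are mosaics of electroporated and other cells, so the control is a mixture of electroporated tissues sorted as RFP+ without eGFP, and not 1 cell type. The labels call the samples biological replicates but do not say which arrays share a pool.

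GFP signal lay between 16930 and 17350 in the Hb-eGFP+ arrays and between 836 and 992 in the RFP+ control arrays, so the higher signal was in the arrays labelled eGFP+. The median signal of all probe sets was 87.7 to 91.1 over the 6 arrays. The 56 probe sets for other reporter genes served as a measure of low signal. Their medians were 34.5 to 37.8 in Hb-eGFP+ arrays and 31.9 to 35.2 in RFP+ control arrays, and their 95th percentiles were 124 to 144 in Hb-eGFP+ arrays and 99.5 to 116 in RFP+ control arrays. A member is said below to be above the reporters where it exceeded that percentile in the same array. The percentile was higher in every Hb-eGFP+ array than in any control array. An equal signal can thus count as above the reporters in control arrays alone, which also holds for the counts in the gene lists. GFP signal in the control arrays also exceeded it, so the control was not free of GFP signal, and the source of that signal was not tested. Rank correlations of whole arrays were 0.985 to 0.991 among Hb-eGFP+ arrays, 0.983 to 0.987 among control arrays and 0.964 to 0.979 between the groups.

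Signal for most of the neural plate genes was lower in Hb-eGFP+ cells than in RFP+ control cells, and none passed the test as higher. By limma with Benjamini-Hochberg adjustment over all probe sets, 8 of the 12 probe sets fell, 0 rose and 4 did not pass, against 5.05% of all probe sets that fell and 4.02% that rose. At an unadjusted p under 0.05 the count of higher member probe sets was also 0. The share of all probe sets or genes at that threshold was not computed, here or for the gene lists below. Counted over genes, with the brightest probe set standing for each, 7 of 9 fell and 0 rose, against 10.7% and 9.19% of all genes. The genes that fell were OTX2, GBX2, ZIC2, SOX2, SOX3, SIX3 and HESX1, and those that did not pass were PAX6 and ZIC1. The median log2 fold change was -1.14 over the 12 probe sets, against 0.02 over all probe sets, and -1.29 over the 9 genes, against 0.01 over all genes. A lower signal in sorted populations can come from fewer cells that make the RNA or from less RNA in each cell, and these cannot be told apart here.

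The sizes of these differences spanned a wide range, from 17.1-fold for OTX2 to a ratio of means close to 1 for PAX6 and ZIC1. The study's own rule asks that the lower bound of a 90% interval of the fold change exceed 1.7. With the spread between arrays as the error, 6 of the 12 probe sets passed it as lower (both of OTX2, and those of SIX3, GBX2, SOX3 and the brighter one of ZIC2) and 0 as higher, against 1.30% and 0.718% of all probe sets. SIX3 passed only narrowly, with a bound of 1.704. It was lost with a 95% interval, with quantile normalization, and without control replicate 2 or 3. Both SIX3 and SOX3 were lost with an offset of 50 and without Hb-eGFP+ replicate 2 or 3. In 8 probe sets all Hb-eGFP+ arrays lay below all control arrays, as they did in 14.1% of all probe sets, in 0 they lay above (16.0% of all), and in 4 the groups overlapped. The plot of signals by array shows the 4 overlapping probe sets, of PAX6, ZIC1 and ZIC2, inside or under the range of the reporter probe sets.

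**Figure D1:**
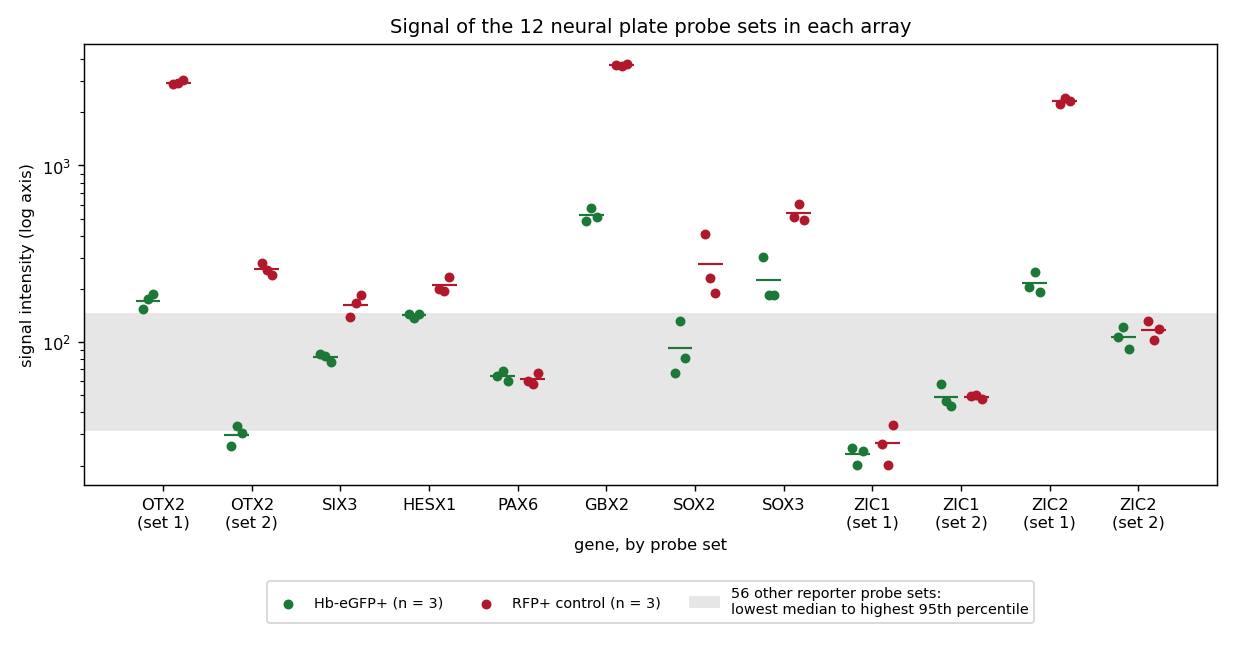
Signal intensity (log axis) of the 12 probe sets in each array, with Hb-eGFP+ arrays (n = 3) in green to the left of RFP+ control arrays (n = 3) in red, horizontal lines at the group means, and a grey band from the lowest median to the highest 95th percentile of the 56 other reporter probe sets. OTX2 (set 1), GBX2 and ZIC2 (set 1) stand between 2237 and 3752 in all control arrays and between 153 and 574 in all Hb-eGFP+ arrays.

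Among the anterior genes OTX2 (Entrez gene 395191) had the lowest share of its control signal. Its brighter probe set gave 153, 176 and 186 in the Hb-eGFP+ arrays, against 2878, 2917 and 3036 in the RFP+ control arrays. The groups were far apart and each was narrow, with all 3 Hb-eGFP+ arrays still above the reporters. The mean of 172 ± 17.0 in Hb-eGFP+ cells was 5.84% of the 2943 ± 82.4 in control cells (SD, n = 3 each), a log2 fold change of -4.10 (SE 0.10, 95% interval -4.33 to -3.88, adjusted p = 2.95e-06 by limma). Only 3 probe sets of the whole array had a lower fold change.

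The dimmer OTX2 probe set gave 25.9, 33.4 and 30.6 in the Hb-eGFP+ arrays, against 282, 257 and 239 in the RFP+ control arrays. Here too the groups did not overlap, and the log2 fold change was -3.12 (SE 0.12, adjusted p = 1.51e-05 by limma). None of its Hb-eGFP+ signals (0 of 3) was above the reporters, whereas all 3 control signals were, so the size of this fold is not exact, and with an offset of 50 before log2 it was -1.95. OTX2 is among the genes that the study picked from these same arrays, so its direction is not independent evidence.

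SIX3 (Entrez gene 378786), which is needed for the most anterior forebrain, was dim in both populations. It gave 85.9, 83.7 and 76.9 in the Hb-eGFP+ arrays, against 138, 167 and 184 in the RFP+ control arrays. Every Hb-eGFP+ array lay below every control array, and the Hb-eGFP+ signals were within the range of the reporters while the control signals were above it. The means were 82.2 ± 4.67 in Hb-eGFP+ cells and 163 ± 23.0 in control cells (SD, n = 3 each), or 50.4% of control, and the log2 fold change was -0.98 (SE 0.12, 95% interval -1.26 to -0.70, adjusted p = 0.00225 by limma).

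HESX1 (Entrez gene 395864), a homeodomain repressor of the anterior neural plate and later of the pituitary, changed by the smallest amount among the genes that passed. It gave 145, 136 and 144 in the Hb-eGFP+ arrays, against 200.4, 194 and 234 in the RFP+ control arrays. The groups did not overlap, and all 6 signals were above the reporters, though Hb-eGFP+ replicate 1 only narrowly (144.8 against a 95th percentile of 144.1). Its mean in Hb-eGFP+ cells was 67.6% of that in control cells, with a log2 fold change of -0.56 (SE 0.10, adjusted p = 0.0117 by limma), and the lower bound of its fold, 1.33, did not reach 1.7.

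PAX6 (Entrez gene 395943), the paired-box factor of the eye and forebrain, showed no difference that passed the test. It gave 64.0, 68.8 and 60.2 in the Hb-eGFP+ arrays, against 60.6, 58.1 and 66.4 in the RFP+ control arrays. The groups overlapped, and 0 of the 6 signals were above the reporters. The log2 fold change was 0.06 (95% interval -0.15 to 0.27, adjusted p = 0.749 by limma). That interval describes the signal of the probe set only. The reporters also reached this signal, so the probe set may not have read PAX6 RNA, and whether that RNA fell is not settled.

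GBX2 (Entrez gene 395950), the posterior gene of the 9, had a high signal in control cells and a much lower one in Hb-eGFP+ cells. Its probe set gave 486, 574 and 512 in the Hb-eGFP+ arrays, against 3720, 3639 and 3752 in the RFP+ control arrays. The control arrays lay within a narrow range, and all Hb-eGFP+ arrays were below it yet well above the reporters. The means were 524 ± 44.9 in Hb-eGFP+ cells and 3704 ± 58.5 in control cells (SD, n = 3 each), so that 14.2% of the control signal was left, with a log2 fold change of -2.82 (SE 0.09, 95% interval -3.03 to -2.62, adjusted p = 7.79e-06 by limma).

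The pan-neural genes SOX2 (Entrez gene 396105) and SOX3 (Entrez gene 374019) were lower in Hb-eGFP+ cells than in control cells with more spread between arrays than the other members. SOX2 gave 66.7, 131 and 80.8 in the Hb-eGFP+ arrays, against 409, 230 and 189 in the RFP+ control arrays. The highest Hb-eGFP+ array, replicate 2, was below the lowest control array, replicate 3, but within the control group replicate 1 stood apart on the high side. The log2 fold change was -1.55 (SE 0.33, 95% interval -2.33 to -0.77, adjusted p = 0.0293 by limma), with means of 92.9 ± 33.9 in Hb-eGFP+ cells and 276 ± 117 in control cells (SD, n = 3 each).

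The pooled SD of SOX2 within groups, 0.54 on the log2 scale, was at the 98.4th percentile of all probe sets, and the lower bound of its fold was 1.65. The SOX2 call was lost without Hb-eGFP+ replicate 1 (adjusted p = 0.112), without Hb-eGFP+ replicate 3 (0.102) and without control replicate 2 (0.0658), and also with an intensity trend and robust variances (0.0992), all by limma, while its log2 fold change stayed between -1.83 and -1.23 with any array left out. Of its Hb-eGFP+ signals 1 of 3 was above the reporters, which leaves its fold uncertain in size, and with an offset of 50 before log2 it was -1.16.

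SOX3 gave 304, 185 and 184 in the Hb-eGFP+ arrays, against 509, 603 and 494 in the RFP+ control arrays. Replicate 1 was the highest of the Hb-eGFP+ arrays and still lay below all control arrays, and all 6 signals were above the reporters. Its mean in Hb-eGFP+ cells, 224 ± 68.9, was 41.9% of the 536 ± 59.2 in control cells (SD, n = 3 each), with a log2 fold change of -1.29 (SE 0.20, adjusted p = 0.00765 by limma). Its call was kept with each array left out in turn, at adjusted p from 0.00148 to 0.0334.

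The ZIC genes gave different readings by gene and by probe set. ZIC2 (Entrez gene 428021) through its brighter probe set gave 205, 251 and 191 in the Hb-eGFP+ arrays, against 2237, 2402 and 2324 in the RFP+ control arrays. The groups did not overlap and all signals were above the reporters. The means were 216 ± 31.4 in Hb-eGFP+ cells and 2321 ± 82.7 in control cells (SD, n = 3 each), or 9.29% of control, with a log2 fold change of -3.44 (SE 0.11, 95% interval -3.70 to -3.17, adjusted p = 9.43e-06 by limma).

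The dimmer ZIC2 probe set did not show this difference. It gave 107, 122 and 91.7 in the Hb-eGFP+ arrays, against 132, 103 and 118 in the RFP+ control arrays. The groups overlapped, and the log2 fold change was -0.14 (95% interval -0.46 to 0.18, adjusted p = 0.590 by limma). Above their own reporters were 3 of 3 control arrays and 0 of 3 Hb-eGFP+ arrays, but the reporters reached higher in the Hb-eGFP+ arrays, so these counts do not show a difference in signal. Both probe sets are annotated to ZIC2, their intervals did not overlap, and the array annotation does not say which part of the transcript each reads.

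ZIC1 (Entrez gene 374103) had no probe set that passed. Its dimmer one gave 25.2, 20.3 and 24.3 in the Hb-eGFP+ arrays, against 26.6, 20.04 and 34.1 in the RFP+ control arrays, and its brighter one gave 57.8, 46.2 and 43.5 in the Hb-eGFP+ arrays, against 49.3, 49.9 and 47.4 in the RFP+ control arrays. Groups overlapped in both probe sets and no ZIC1 signal was above the reporters. The log2 fold changes were -0.18 (95% interval -0.63 to 0.26, adjusted p = 0.619 by limma) and 0.00 (-0.28 to 0.27, adjusted p = 0.992), and the sign of the second turned with median centring and with an offset before log2, and those of both with an array left out.

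**Figure D2:**
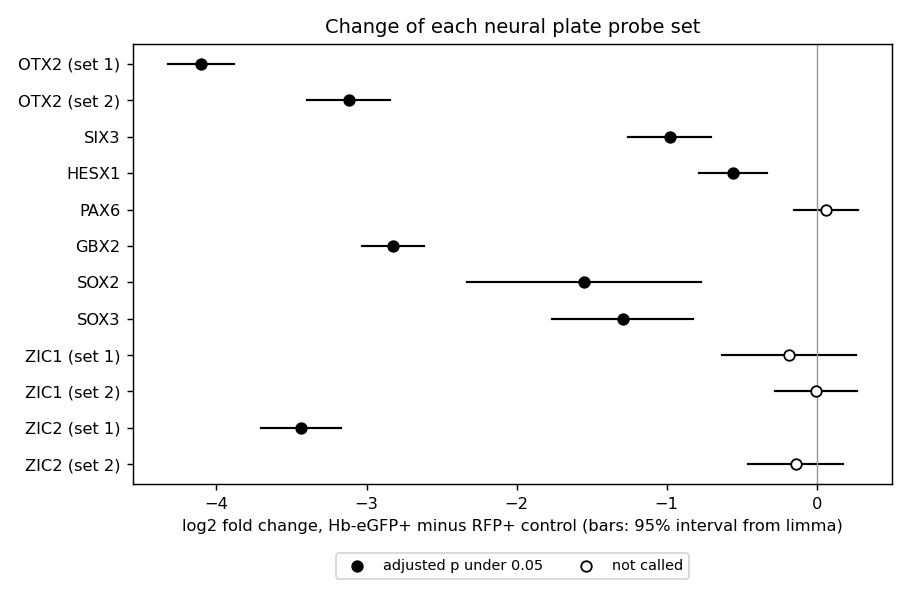
Log2 fold change (Hb-eGFP+ minus RFP+ control, x axis) of each of the 12 probe sets (y axis), with bars for the 95% interval from limma, filled points for adjusted p under 0.05 and open points for those that did not pass. The intervals of OTX2, GBX2 and the brighter ZIC2 probe set end at -2.62 or lower, those of SIX3, HESX1, SOX2 and SOX3 lie between -2.33 and -0.34, and those of PAX6, ZIC1 and the dimmer ZIC2 probe set cross 0.

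Whether members changed by unlike amounts was asked within arrays, where the log2 difference of a pair of genes was compared between the groups in 9 pairs. With 3 arrays against 3 an exact two-sided permutation test cannot go below 0.1, so no pair could pass, and the values are given with that limit. In 8 of the 9 pairs the groups did not overlap, each at the smallest p (0.1, adjusted 0.113 over the pairs). Pairs were chosen with earlier results of these data known, and the share of other gene pairs without overlap was not computed. The log2 fold change of OTX2 minus that of GBX2 was -1.28 (SE 0.08), and -0.79 with the mean over the probe sets of a gene. For OTX2 it differed in the same direction from SOX2 (-2.55, SE 0.44), SOX3 (-2.81, SE 0.34), SIX3 (-3.12, SE 0.16) and HESX1 (-3.54, SE 0.12).

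In these values OTX2 was nearer to the posterior gene GBX2 than to the anterior genes SIX3 and HESX1. Control means differed too, at 2943 for OTX2 and 3704 for GBX2, against 163 for SIX3 and 209.5 for HESX1. Reporter medians in Hb-eGFP+ arrays were 34.5 to 37.8. A fall as large as that of OTX2 would thus have taken SIX3 or HESX1 below those medians, where its size is not exact. The order of genes given below has the same limit. The difference between log2 fold changes was -0.42 (SE 0.11) for SIX3 against HESX1 and -1.27 (SE 0.40) for GBX2 against SOX2. For ZIC2 against ZIC1 it was -3.43 (SE 0.18), and -1.695 with the mean over the probe sets of a gene, which takes in the dimmer ZIC2 probe set. ZIC1 was above the reporters in 0 of 6 arrays, SIX3 in 0 of 3 and SOX2 in 1 of 3 Hb-eGFP+ arrays. Whether ZIC1 RNA fell is thus not settled, and the sizes of the differences that involve these genes are not exact. SOX2 and SOX3 did not separate. Their difference was -0.26 (SE 0.61, exact p = 0.9), the groups overlapped, and the interval implied by that error is too wide to call them alike. By the fold change of the brightest probe set, the genes ran in the order OTX2, ZIC2, GBX2, SOX2, SOX3, SIX3 and HESX1. ZIC1 and PAX6 followed, and their place holds only for signals at the level of the reporters. The top of the order depends on the probe set, since the dimmer ones gave -3.12 for OTX2 and -0.14 for ZIC2. The plot of pairs within arrays shows the pairs that were compared, and not every step of this order.

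**Figure D3:**
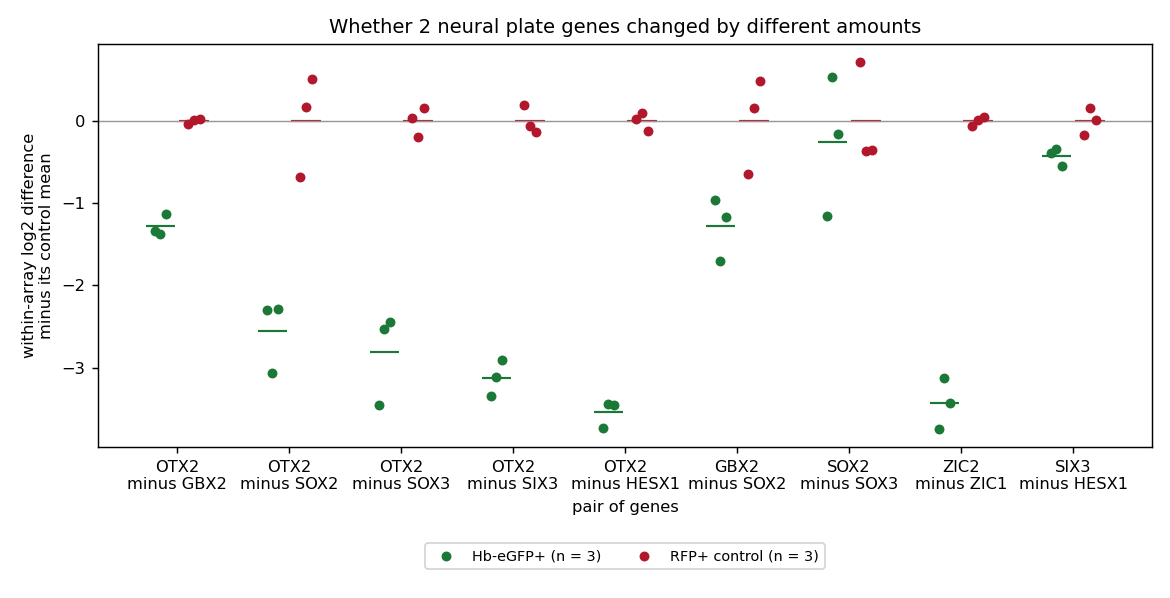
Log2 difference of 2 genes within each array, minus its mean over the RFP+ control arrays (y axis, log2 units), for 9 pairs (x axis), with Hb-eGFP+ arrays (n = 3) in green to the left of control arrays (n = 3) in red and lines at the group means. Hb-eGFP+ means run from -3.54 for OTX2 minus HESX1 to -0.26 for SOX2 minus SOX3, the pair in which the groups overlap.

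The genes whose signals over the 6 arrays ran closest to a member, by Euclidean distance of centred log2 values among 13050 other genes, were looked up for OTX2, GBX2 and SOX2. For OTX2 these were FZD8, a Wnt receptor gene of the anterior neural plate (distance 0.30, log2 fold change -4.04), MSGN1, a bHLH factor of presomitic mesoderm (0.32, -3.87), and FST, the activin antagonist follistatin (0.39, -4.27). For GBX2 they were CCDC3 (0.25, -2.64), POMC, the precursor of pituitary peptide hormones (0.28, -2.92), and FOXC2, a forkhead factor of paraxial mesoderm (0.32, -2.73). FZD8, MSGN1, FST and FOXC2 are also among the genes the study picked from these arrays. FZD8, FST, FOXC2 and POMC were above the reporters in 0 of 3 Hb-eGFP+ arrays, so their folds are not exact in size. CCDC3 was not above them in Hb-eGFP+ replicate 1.

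For SOX2 the nearest genes were TTC39A (0.24, -1.55), NOTO, a homeobox factor of the node and notochord (0.38, -1.79), and RAX2, a retina-type homeobox gene (0.39, -1.83). These share with SOX2 its order within groups, which the distance takes in as well as the fold change. NOTO gave 109, 187 and 111 in the Hb-eGFP+ arrays, against 702, 373 and 356 in the RFP+ control arrays, and TTC39A gave 171, 308 and 221 in Hb-eGFP+ arrays, against 993, 549 and 531 in control arrays. As with SOX2, Hb-eGFP+ replicate 2 was the highest of its group and control replicate 1 stood above the other controls. GBX1, the paralog of GBX2, had the same highest arrays, with 70.2, 123 and 68.3 in Hb-eGFP+ arrays, against 350 (replicate 1), 188 and 233 in control arrays (log2 fold change -1.57, SE 0.29, adjusted p = 0.00791 by limma over genes). In both groups its other arrays ran in the opposite order to those of SOX2. The share of all genes with the same highest arrays was not computed. Among Hb-eGFP+ arrays GBX1 was above the reporters in none, NOTO only in replicate 2, and RAX2 in replicates 2 and 3. The folds of these genes are thus not exact in size.

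The rest of the anterior neural genes were read from a list of 26, of which 19 were measured. With the members included 9 fell, 0 rose and 10 did not pass by limma over genes, against 10.7% lower and 9.19% higher over all genes. The median log2 fold change was -0.47, against 0.01 over all genes. Without the 4 members in the list, 6 of 15 fell and the median was -0.36. The summed signal of the list was 1770 to 1811 in Hb-eGFP+ arrays and 7282 to 7389 in control arrays. In all, 3 of the 19 genes were above the reporters in every Hb-eGFP+ array and 7 in every control array.

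FZD8 averaged 55.5 ± 11.3 in Hb-eGFP+ cells and 899 ± 7.21 in control cells (SD, n = 3 each), with a log2 fold change of -4.04 (SE 0.14, adjusted p = 2.82e-06 by limma over genes), although none of its Hb-eGFP+ signals was above the reporters and its second probe set did not pass. SFRP1, a secreted Wnt antagonist, averaged 549.7 ± 27.7 in Hb-eGFP+ cells and 1860 ± 94.2 in control cells (log2 fold change -1.76, SE 0.07, adjusted p = 5.83e-06). Of its 4 probe sets, 1 besides this brightest one passed as lower. NKX2-1, a homeodomain factor of the ventral forebrain, averaged 12.6 in Hb-eGFP+ cells and 102 in control cells (-3.06, SE 0.18, adjusted p = 2.81e-05), with 0 of 3 Hb-eGFP+ and 2 of 3 control arrays above the reporters. PAX2, a paired-box factor of the midbrain and eye stalk, averaged 96.4 in Hb-eGFP+ cells and 289 in control cells (-1.58, SE 0.08, adjusted p = 1.85e-05), with 0 of 3 Hb-eGFP+ and 3 of 3 control arrays above the reporters. LHX2, LHX5, SIX6, FEZF2 and VAX1 did not pass, with log2 fold changes from -0.14 to 0.05, adjusted p from 0.303 to 0.916 and no array of either group above the reporters.

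Of 20 posterior neural genes 15 were measured. Of these 10 fell, 0 rose and 5 did not pass, against 10.7% lower and 9.19% higher over all genes. The median log2 fold change was -0.66, against 0.01 over all genes. Without GBX2 the count was 9 of 14 and the median -0.66, so it did not rest on that gene. SP8, a zinc finger factor, averaged 38.1 ± 4.43 in Hb-eGFP+ cells and 119 ± 9.41 in control cells (log2 fold change -1.65, SE 0.10, adjusted p = 4.20e-05 by limma over genes). NKX6-1, a homeodomain factor of the ventral neural tube, averaged 50.02 in Hb-eGFP+ cells and 123 in control cells (-1.31, SE 0.09, adjusted p = 7.26e-05). Both were above the reporters in 0 of 3 Hb-eGFP+ arrays, and in control arrays SP8 in 2 of 3 and NKX6-1 in 3 of 3. In all, 4 of the 15 genes were above the reporters in every Hb-eGFP+ array and 7 in every control array. IRX2 and DBX2, which are among those that fell, were above the reporters in no array of either group. At an unadjusted p under 0.05, 0 anterior genes and 1 posterior gene, HOXB4 (log2 fold change 0.33), were higher. The counts of the anterior and posterior lists were not tested against each other.

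Of 21 pan-neural and ZIC genes 18 were measured. Of these 8 fell, 0 rose and 10 did not pass, against 10.7% lower and 9.19% higher over all genes. The median log2 fold change was -0.17, against 0.01 over all genes. Without SOX2, SOX3, ZIC1 and ZIC2 the count was 5 of 14 and the median -0.06. CDH2, the neural cadherin, averaged 1379 ± 92.7 in Hb-eGFP+ cells and 4277 ± 279 in control cells (log2 fold change -1.63, SE 0.08, adjusted p = 1.36e-05 by limma over genes), and it is another gene that the study picked from these arrays. The study lists CDH2 as expressed in the primitive streak as well as in neural ectoderm. NEUROG2, a proneural bHLH factor, averaged 36.9 in Hb-eGFP+ cells and 84.6 in control cells (-1.20, SE 0.08, adjusted p = 6.70e-05), at signals that were not above the reporters in any array.

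At an unadjusted p under 0.05, 2 genes of this list were higher, SOX1 and CHURC1 (log2 fold change 0.22), a zinc finger factor of early neural induction in the chick. Further genes of this list gave differing readings. SOX1, the other SoxB1 gene measured, averaged 27.5 in Hb-eGFP+ cells and 22.6 in control cells, with a log2 fold change of 0.28 (SE 0.11, adjusted p = 0.115 by limma over genes) and no array above the reporters. ZIC4 averaged 107 in Hb-eGFP+ cells and 103 in control cells (0.06, SE 0.13, adjusted p = 0.801), with 0 of 3 Hb-eGFP+ and 1 of 3 control arrays above the reporters. SOX11, a SoxC factor of neural progenitors and neurons, fell, with 453 ± 53.3 in Hb-eGFP+ cells and 1204 ± 269.8 in control cells (log2 fold change -1.396, SE 0.16, adjusted p = 0.000834), though its second probe set did not pass. GMNN, geminin, a replication licensing inhibitor that is also active in early neural tissue, averaged 1599 in Hb-eGFP+ cells and 1611 in control cells (-0.01, SE 0.06, adjusted p = 0.929).

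**Figure D4:**
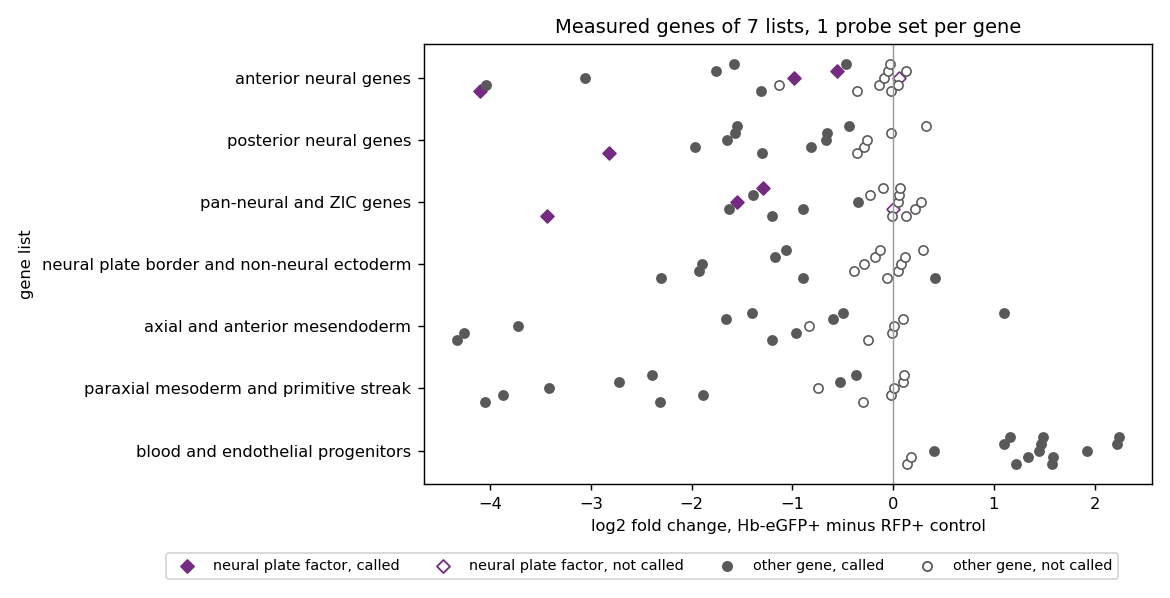
Log2 fold change (Hb-eGFP+ minus RFP+ control, x axis) of the measured genes of 7 lists (y axis), 1 probe set per gene, with the neural plate factors as diamonds, other genes as circles, and filled symbols for adjusted p under 0.05 by limma over genes. No gene of the 3 neural lists that passed lies above 0, and 13 of 15 blood and endothelial genes do.

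Genes of the neighbouring tissues moved as well, and their part in the values of the neural plate genes was not tested. The shares over all genes were again 10.7% lower and 9.19% higher by limma. Of 16 measured genes of the neural plate border and non-neural ectoderm 6 fell and 1 rose, MSX1, with a log2 fold change of 0.42 (adjusted p = 0.00338 by limma over genes). EYA2, a transcriptional coactivator of sensory placodes (log2 fold change -2.30), DLX5, a homeodomain factor of the plate border (-1.895), and CDH1, the epithelial cadherin (-1.93), came first by adjusted p among those that fell, and the sum of the list was 8953 to 9469 in Hb-eGFP+ arrays and 12710 to 12880 in control arrays. EYA2 was above the reporters in 0 of 3 Hb-eGFP+ arrays, so its fold is not exact in size. The other probe set of DLX5 did not pass as lower. Of 15 axial and anterior mesendoderm genes 9 fell and 1 rose, and the sum was 21580 to 22600 in Hb-eGFP+ arrays and 31020 to 33720 in control arrays. FST, the Wnt antagonist gene LOC395991 and CXCR4 came first by adjusted p, with Hb-eGFP+ signals at 5.21%, 4.95% and 7.50% of control. The study lists FST as expressed in the neural plate and paraxial mesoderm, so FST does not mark the tissues of this list alone. FST and CXCR4 were above the reporters in 0 of 3 Hb-eGFP+ arrays and LOC395991 in 3 of 3. The shares of FST and CXCR4 are thus not exact. HHEX, a homeobox gene that is also in the blood list, rose (log2 fold change 1.10).

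Of 15 paraxial mesoderm and primitive streak genes 9 fell, 0 rose and the sum was 10560 to 10970 in Hb-eGFP+ arrays and 19180 to 20190 in control arrays, with MSGN1 (log2 fold change -3.87), WNT8A (-2.31) and FOXC1 (-4.05) first by adjusted p. At an unadjusted p under 0.05 the count that rose was 0 as well. By adjusted p, the limma shares over all genes were 10.7% lower and 9.19% higher. Of the Hb-eGFP+ signals, 3 of 3 were above the reporters for MSGN1, 2 of 3 for WNT8A and 0 of 3 for FOXC1. The fold of FOXC1 is thus not exact in size. Blood and endothelial progenitor genes, the cells for which the study named the Hb reporter, went the other way, since 13 of 15 rose and 0 fell (0 at an unadjusted p under 0.05), and 12 of them were above the reporters in every Hb-eGFP+ array and 12 in every control array. By adjusted p, TAL1 (log2 fold change 1.93), SOX7 (2.25) and SOX18 (1.59) came first. TAL1 had 4 probe sets, of which 1 besides the brightest passed as higher, and the other probe set of SOX7 did not. With the mean over the probe sets of a gene, 11 genes of the list rose. Most of the blood genes and many of the leading mesendoderm and mesoderm genes were picked by the study from these arrays, so these counts are not independent evidence of direction. OTX2, GBX2 and ZIC2 thus fell together with genes of anterior mesendoderm and paraxial mesoderm, and the arrays hold no measure that assigns their control signal to the neural plate or to those tissues.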

How the data were processed

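Each sample gave 40 ng of total RNA, which was amplified in a double cycle of labelling and hybridized to its own array. The authors read the arrays with GCOS 1.4 and computed in dChip, after normalizing the 6 arrays, a model-based index for every probe set from its Perfect Match probes, so the deposited values are linear signal intensities, here from 1 to 20134. How dChip normalized and whether it subtracted background are points not given in the sources used here. Every one of the 6 value columns was used. The platform annotation names a single gene for 27168 probe sets and several for 177, and 11094 carry no name here. Of the named ones 26853 had their gene ID in RefSeq's GRCg7b gene table, which served only to bring symbols up to date.

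Values were taken to log2 with no further normalization. limma (lmFit and eBayes, two-sided, with group alone in the model) was run over the 38439 probe sets and, with the brightest probe set by mean log2 signal standing for a gene, over the 13051 genes. P-values were adjusted by Benjamini-Hochberg, and 0.05 was the threshold. Members carry the adjusted p of the fit over probe sets, other genes that of the fit over genes. The study's rule, a lower bound of the 90% interval of the fold above 1.7, was applied with the array-to-array spread as its error. The interval used a normal quantile, which is narrow for 3 arrays per group, and dChip's own errors were not used. The limma fit over probe sets was tested on simulated data, with changes set only in bright probe sets. The lower bound and the permutation test were not tested in this way. Precision is limited by the number of arrays, and p-values measure only the spread between these samples.

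Members, gene lists, pairs and tests were chosen with earlier results of these data known. The text names all members, from each list the 3 genes of smallest adjusted p together with the leading called gene in either direction, and the 3 nearest genes of OTX2, GBX2 and SOX2. Outside that rule, and picked once their values had been seen, are GBX1, NKX2-1, PAX2, IRX2, DBX2, HOXB4, CHURC1, SOX1, SOX11, ZIC4, GMNN, LHX2, LHX5, SIX6, FEZF2 and VAX1. The alternatives tried were median centring or quantile normalization of the arrays, an offset of 50 before log2, leaving out dim probe sets, a variance trend with robust estimation, a minimum fold of 1.7, a block for the replicate number, the mean over a gene's probe sets, other intervals, and leaving out each array. The software was R 4.3.3 with limma 3.58.1, and Python 3.11.15 with pandas 2.3.3, NumPy 2.4.6, SciPy 1.17.1 and matplotlib 3.10.9.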

Additional observations from a re-analysis of the deposited data

How the results depend on the processing

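OTX2 (both probe sets), GBX2 and the brighter ZIC2 probe set kept their direction and their call under every alternative run in which they were tested, the minimum fold of 1.7 included; the dimmer OTX2 probe set was left out with the dim ones. With that minimum fold in limma, 4 member probe sets and 3 member genes passed as lower, against 8 and 7, and SIX3, HESX1, SOX2 and SOX3 no longer passed; over all probe sets it left 231 lower and 94 higher, against 1941 and 1545. No pairing by replicate number was established, since the labels give none and deviations from the group means correlated at only -0.12, -0.05 and 0.10 between arrays of the same number. With the replicate block 7 member probe sets and 7 member genes passed as lower, SOX2 had an adjusted p of 0.0731 in the fit over probe sets, and 1248 probe sets were lower and 900 higher over the array. With any array left out, 7 to 8 member probe sets and 6 to 7 member genes were lower and 0 higher, and by the lower bound 4 to 6 probe sets were lower. Without Hb-eGFP+ replicate 1 the counts over all probe sets were 1187 lower and 856 higher, and without Hb-eGFP+ replicate 3 they were 1102 and 811. Without control replicate 1, 962 were higher. Over genes, against 1396 lower and 1200 higher, 767 were higher without Hb-eGFP+ replicate 1, 921 lower and 742 higher without Hb-eGFP+ replicate 3, and 796 higher without control replicate 1. By the lower bound, 5 members passed with a 95% interval, 5 with quantile normalization, 4 with an offset of 50 and 7 with no interval. With only probe sets brighter than the median of all, 5 posterior neural genes were lower, against 10, since fewer were tested. The brighter ZIC1 probe set turned to 0.0098 with median centring and to 0.0010 with the offset, and with arrays left out it ran from -0.13 to 0.0798 and the dimmer one from -0.38 to 0.0038. Over the pairs, SOX2 minus SOX3 ran from -0.66 to 0.19 with arrays left out, and was positive without Hb-eGFP+ replicate 1 (0.19) or control replicate 1 (0.10); with the offset it was -0.04 and SIX3 minus HESX1 -0.25. Pan-neural genes that passed as higher numbered 0 to 1 with arrays left out (1 without Hb-eGFP+ replicate 2). At signals within the range of the reporter probe sets (PAX6, ZIC1, and in Hb-eGFP+ cells SIX3, SOX2 and the dimmer OTX2 probe set) the size of a fold is not exact.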
